A study of Oryza sativa Indica Group with 2 samples.

Results

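The short arm of rice chromosome 4 was described here as the loci numbered LOC_Os04g01000 to LOC_Os04g16699, without LOC_Os04g06770 and LOC_Os04g08034. The loci were taken by their numbers alone, and they were 1353 of the 55337 loci in the table. Poly(A) RNA came from spikelets of young panicles, 40 to 60 mm long, with meiocytes in prophase I. There was 1 library of *Osam1* plants, which lack 2 nucleotides of exon 2 of *OsAM1* and so carry an early stop codon in it, and 1 library of wild-type plants. The mutant was induced by 60Co γ rays in the *indica* variety Zhongxian 3037, and Zhongxian 3037 itself was the wild type. Each RNA sample pooled spikelets from several panicles and held many somatic cells beside the meiocytes, and all plants grew in a paddy field. With 1 library per genotype there was no replicate, no error between replicates and no test, so every difference below compares these libraries and has no replicate check.

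Rice locus numbers run along each chromosome, and on chromosome 4 they begin at the end of the short arm. Heterochromatin is the compact form of chromatin in which most genes and transposable elements are kept silent, and the short arm of chromosome 4 is known in rice for being largely heterochromatic and rich in transposable elements, while most of the long arm is euchromatin. The table holds RNA levels only, so the state of the chromatin itself was not measured. It pairs no locus with a gene name or a function, and the reference table used here does not list these locus numbers, so loci are given by number.

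The values are FPKM, which set the fragments of a transcript against its length and the size of the library. They were added over the transcript models of a locus, and a locus above 0 was counted as expressed. The table does not state how deeply each library was sequenced. Among 4204 low loci with 1 transcript model, the most frequent ratio between the libraries was 2.37, with 198 loci within 2% of it. At 1.18 and 0.79, simple fractions of it, there were 112 and 104 loci. At 1.58, 4.74 and 0.47 there were 72, 74 and 76. No counts at other ratios are given, so whether the smaller numbers form groups is not known. Steps arise where whole reads are counted. Read as the step of equal read numbers, the ratio of 2.37 makes the wild-type-labelled library 2.37 times as deep. Which read numbers stand behind a step is not known. The study gives the mutant more uniquely mapped reads than the wild type, and its text gives no locus for *OsAM1*, so the labels could not be checked on the mutated gene. In the table, the column that the labels give to *Osam1* has a name ending in AA and the one given to the wild type a name ending in aa, and what these letters stand for is not stated. In earlier work on these data, most of the directions that the study lists by locus went with the opposite assignment of the columns. Those directions were not counted again here. The libraries are therefore called by their labels, and every direction rests on them: if the columns were exchanged, each sign, and each higher and lower, would turn round.

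Few loci of the short arm were expressed. In the *Osam1*-labelled library, 277 of the 1353 loci (20.5%) were above 0, and in the wild-type-labelled library 281 loci (20.8%) were. On the long arm, taken from LOC_Os04g30000 onwards, the shares were 51.7% (*Osam1*-labelled) and 57.6% (wild-type-labelled) of 2715 loci, and over all loci of the table they were 39.9% (*Osam1*-labelled) and 42.9% (wild-type-labelled). At least 1 FPKM was reached by 209 short arm loci (15.4%) in the *Osam1*-labelled library and by 194 (14.3%) in the wild-type-labelled library, against 48.1% (*Osam1*-labelled) and 52.9% (wild-type-labelled) of the long arm. The gap between the arms was thus several times wider than the gap between the libraries at either cutoff. Both libraries listed 959 short arm loci (70.9%) at 0, compared with 36.7% of the long arm loci. A locus listed at 0 gave no value at this depth and is not shown to be without RNA. How reads that match several places were assigned is not stated, so values of loci with near-identical copies are uncertain, and the libraries do not tell a locus from one that overlaps it on the other strand. In such whole spikelets, fewer cells of a type and less RNA per cell cannot be told apart.

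The expressed loci of the short arm were also at lower levels. Their median was 3.84 FPKM in the *Osam1*-labelled library and 3.02 FPKM in the wild-type-labelled library, against 16.0 (*Osam1*-labelled) and 15.35 FPKM (wild-type-labelled) on the long arm. Among loci with at least 1 FPKM the gap was narrower, with medians of 10.1 (*Osam1*-labelled) and 9.69 FPKM (wild-type-labelled) on the short arm and 17.9 (*Osam1*-labelled) and 18.0 FPKM (wild-type-labelled) on the long arm. Values under 1 FPKM made up 24.5% (*Osam1*-labelled) and 31.0% (wild-type-labelled) of the expressed short arm loci, but 6.84% (*Osam1*-labelled) and 8.18% (wild-type-labelled) of the expressed long arm loci. At the upper end, 105 short arm loci (7.76%) had at least 10 FPKM in the *Osam1*-labelled library and 96 (7.10%) in the wild-type-labelled library, whereas 32.1% (*Osam1*-labelled) and 34.1% (wild-type-labelled) of the long arm loci did. At least 100 FPKM was reached by 14 short arm loci (1.03%) in each library, against 4.53% (*Osam1*-labelled) and 5.78% (wild-type-labelled) on the long arm. The 25th and 75th percentiles of the expressed short arm loci were 1.02 and 21.6 FPKM in the *Osam1*-labelled library and 0.68 and 18.1 FPKM in the wild-type-labelled library.

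**Figure D1:**
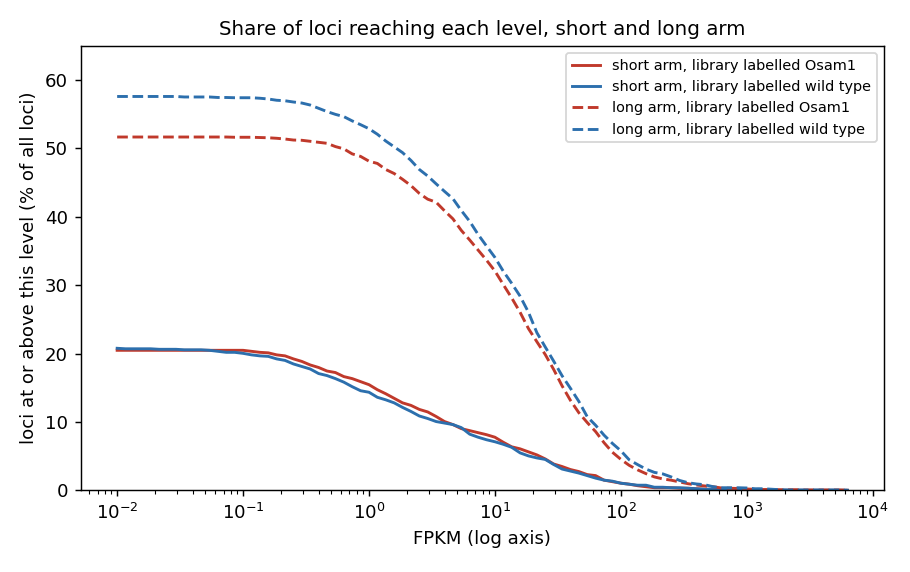
Share of all loci (y axis, %) that reached at least the FPKM on the x axis (log axis), for the short arm (solid lines) and the long arm (dashed lines) in the *Osam1*-labelled library (red) and the wild-type-labelled library (blue). The short arm lines begin near 20.5% (*Osam1*-labelled) and 20.8% (wild-type-labelled) and the long arm lines near 51.7% (*Osam1*-labelled) and 57.6% (wild-type-labelled), and the short arm lines are below the long arm lines at 1, 10 and 100 FPKM.

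Summed over the arm, the values came to 7225 FPKM in the *Osam1*-labelled library and 7186 FPKM in the wild-type-labelled library. These sums were 0.525% (*Osam1*-labelled) and 0.629% (wild-type-labelled) of all FPKM of the libraries, from 2.45% of the loci. Without LOC_Os09g01000 on chromosome 9, the highest locus of the table, the short arm held 0.673% (*Osam1*-labelled) and 0.679% (wild-type-labelled). A few loci carried much of the signal: the 10 highest loci in each library made up 46.0% (*Osam1*-labelled) and 49.1% (wild-type-labelled) of the sum of the short arm, but 24.1% (*Osam1*-labelled) and 23.7% (wild-type-labelled) of that of the long arm.

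Loci with several transcript models differed from the others. The short arm had 57 such loci (4.21%), whereas 16.2% of the long arm loci had several models. Of these 57 loci, 44 (77.2%) were expressed in the *Osam1*-labelled library and 46 (80.7%) in the wild-type-labelled library, with medians of 29.8 (*Osam1*-labelled) and 29.6 FPKM (wild-type-labelled). The long arm loci with several models were expressed at 87.0% (*Osam1*-labelled) and 92.7% (wild-type-labelled), with medians of 29.2 (*Osam1*-labelled) and 26.7 FPKM (wild-type-labelled), so among expressed loci of this kind the medians of the arms were close. The gap was wider among loci of 1 transcript model: of the 1296 on the short arm, 233 (18.0%, *Osam1*-labelled) and 235 (18.1%, wild-type-labelled) were expressed, compared with 44.9% (*Osam1*-labelled) and 50.8% (wild-type-labelled) of such loci on the long arm. Values of a locus with several models are sums and can count the same reads more than once.

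Expression was uneven along the arm. The arm was divided into 16 windows of 1000 locus numbers, which held 42 to 97 loci each. The 2 windows at the distal end had the highest shares of the arm in both libraries. In the window of LOC_Os04g01000, 33 of 94 loci (35.1%) were expressed in the *Osam1*-labelled library and 38 (40.4%) in the wild-type-labelled library. In the window of LOC_Os04g02000, 26 of 92 loci (28.3%, *Osam1*-labelled) and 36 of 92 loci (39.1%, wild-type-labelled) were. These 2 windows held 13.7% of the loci of the arm, yet 36.8% of its summed FPKM in the *Osam1*-labelled library and 42.9% in the wild-type-labelled library. Their expressed loci had medians of 18.6 (*Osam1*-labelled) and 7.25 FPKM (wild-type-labelled), against 2.75 (*Osam1*-labelled) and 2.12 FPKM (wild-type-labelled) in the other 14 windows. Over those 14 windows, 218 of 1167 loci (18.7%) were expressed in the *Osam1*-labelled library and 207 (17.7%) in the wild-type-labelled library.

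**Figure D2:**
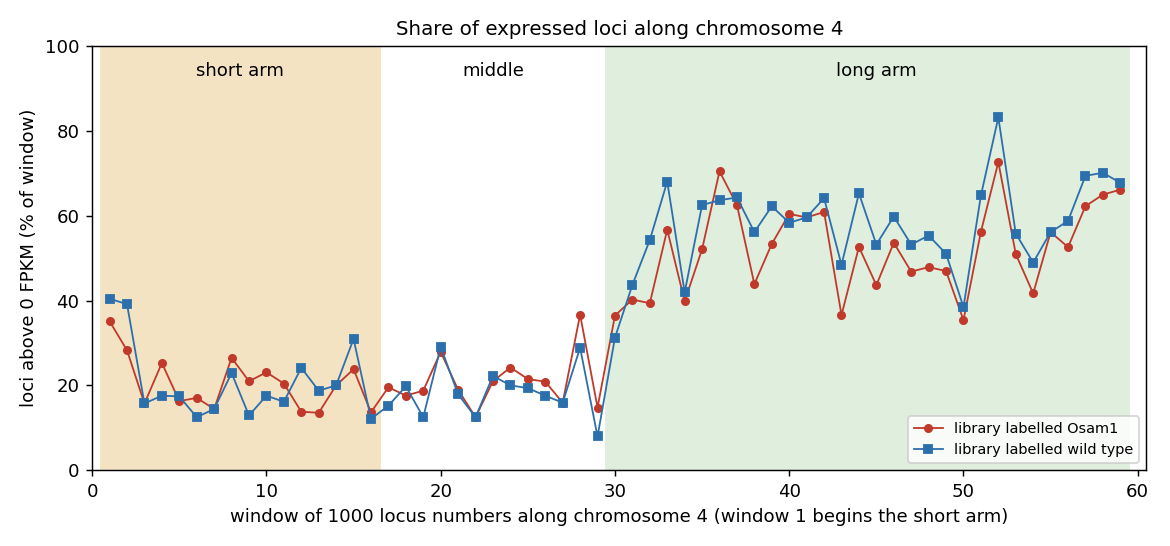
Share of loci above 0 FPKM (y axis, % of the loci in a window) in windows of 1000 locus numbers along chromosome 4 (x axis), in the *Osam1*-labelled library (red circles) and the wild-type-labelled library (blue squares), with the short arm and the long arm shaded. After the first 2 windows the short arm stayed at 13.5% to 26.5% in the *Osam1*-labelled library and 12.1% to 31.0% in the wild-type-labelled library, and the long arm windows lay at 35.4% to 72.6% (*Osam1*-labelled) and 31.2% to 83.2% (wild-type-labelled).

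The other 14 windows were all below the lowest of the long arm in both libraries. In the *Osam1*-labelled library the lowest share was 13.5%, in the window of LOC_Os04g13000, and the highest after the distal windows was 26.5%, in the window of LOC_Os04g08000. In the wild-type-labelled library the lowest share was 12.1%, in the window of LOC_Os04g16000, and the highest after the distal windows was 31.0%, in the window of LOC_Os04g15000, which held only 42 loci. The median window had 20.2% (*Osam1*-labelled) and 17.6% (wild-type-labelled), against 52.6% (*Osam1*-labelled) and 58.5% (wild-type-labelled) on the long arm. All 16 short arm windows lay below each of the 30 long arm windows in the *Osam1*-labelled library, the closest being 35.1% against 35.4%. In the wild-type-labelled library 14 of the 16 did, the exceptions being the distal windows at 40.4% and 39.1%, above the lowest long arm window at 31.2%. The *Osam1*-labelled library had the higher share in 7 short arm windows, the wild-type-labelled library in 6, and 3 were equal. On the long arm the wild-type-labelled library had the higher share in 25 of 30 windows.

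Differences between the libraries within a window went both ways. The widest, in percentage points, was that of the window of LOC_Os04g02000 given above, and the window of LOC_Os04g12000 had 12 expressed loci of 87 (13.8%) in the *Osam1*-labelled library and 21 (24.1%) in the wild-type-labelled library. The window of LOC_Os04g09000 had 13 of 62 (21.0%, *Osam1*-labelled) and 8 (12.9%, wild-type-labelled), and the window of LOC_Os04g04000 had 23 of 91 (25.3%, *Osam1*-labelled) and 16 (17.6%, wild-type-labelled). A few loci decide such a difference.

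Set among all 608 windows of the table with at least 30 loci, whose median share was 39.3% in the *Osam1*-labelled library and 42.9% in the wild-type-labelled library, the short arm was at the low end. Shares under 20% were found in 55 windows of the series in the *Osam1*-labelled library, of which 13 lay on chromosome 4. In the wild-type-labelled library 64 windows were, 18 of them on chromosome 4. With windows cut at the end of the arm, 7 of 16 short arm windows were under 20% (*Osam1*-labelled) and 10 (wild-type-labelled). In the series the window of LOC_Os04g16000 also holds loci beyond the arm, so these 7 and 10 windows are not all among the 55 and 64. No long arm window was under 20% in either library. Low windows also occurred on every other chromosome. What set the short arm apart from most of them was its length. In the *Osam1*-labelled library the windows of LOC_Os04g02000 to LOC_Os04g15000 made 14 in a row under 30%. The longest such stretch of the table in that library, on chromosome 10, had 15. The next window, that of LOC_Os04g16000, was counted here with loci beyond the short arm. Of its short arm loci alone, 13.6% were expressed in that library. In the wild-type-labelled library the stretch ran over the 12 windows of LOC_Os04g03000 to LOC_Os04g14000, and the longest of the table, 13 windows, was that of LOC_Os04g17000 to LOC_Os04g29000, between the arms compared here.

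Loci listed at 0 in both libraries often stood together. On the short arm, 17 runs of at least 10 such neighbours held 203 loci (15% of the arm), whereas the long arm had 2 such runs with 20 loci (0.737%). The longest run covered the 19 loci LOC_Os04g04690 to LOC_Os04g04880. It was bordered by LOC_Os04g04680, with 3.09 FPKM in the *Osam1*-labelled library and listed at 0 in the wild-type-labelled library, and by LOC_Os04g04890, with 3.65 (*Osam1*-labelled) and 0.77 FPKM (wild-type-labelled). Runs of 15 loci followed at LOC_Os04g13480 to LOC_Os04g13630 and at LOC_Os04g16190 to LOC_Os04g16350. Longer runs follow from a lower share of expressed loci alone, and whether the loci cluster beyond that was not tested.

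**Figure D3:**
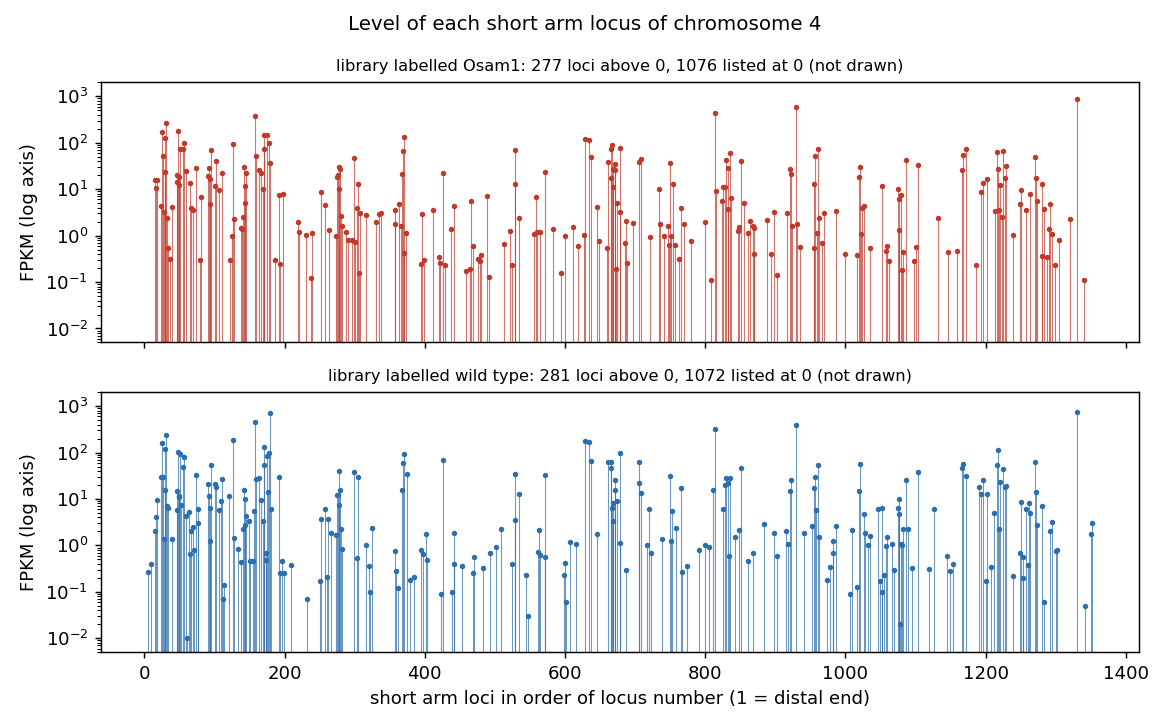
FPKM (y axis, log axis) of every short arm locus above 0, in order of locus number from the distal end (x axis), in the *Osam1*-labelled library (upper panel, 277 loci) and the wild-type-labelled library (lower panel, 281 loci). Expressed loci crowd at the distal end, and elsewhere single high loci stand among loci with low values or listed at 0.

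The highest locus of the arm was close to its proximal end. LOC_Os04g16450 had 865.3 FPKM in the *Osam1*-labelled library and 739.6 FPKM in the wild-type-labelled library, in a window where only 9 (*Osam1*-labelled) and 8 (wild-type-labelled) of 66 loci were expressed. It made up most of the sum of that window, which was 876.2 (*Osam1*-labelled) and 751.1 FPKM (wild-type-labelled). LOC_Os04g11524 followed with 599.6 FPKM in the *Osam1*-labelled library and 390.7 FPKM in the wild-type-labelled library, a log2 ratio of 0.62 with 1 FPKM added to each value, the scale of all ratios here. LOC_Os04g02670 had 368.7 FPKM in the *Osam1*-labelled library and 456.3 FPKM in the wild-type-labelled library. LOC_Os04g10240 had 431.9 (*Osam1*-labelled) and 316.6 FPKM (wild-type-labelled), all of it from the first of its 2 transcript models. These 4 loci were high in both libraries and within 2-fold.

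The next loci by mean level lay mostly in the distal windows. LOC_Os04g01300 had 272.1 FPKM in the *Osam1*-labelled library and 240.8 FPKM in the wild-type-labelled library, summed over 4 transcript models. The sums hide opposite moves: its transcript models 1 to 3 had 47.5 FPKM each in the *Osam1*-labelled library and 11.3 FPKM each in the wild-type-labelled library, and model 4 had 129.8 (*Osam1*-labelled) and 206.8 FPKM (wild-type-labelled). LOC_Os04g01240 had 173.5 (*Osam1*-labelled) and 161.0 FPKM (wild-type-labelled), and LOC_Os04g01500 had 181.35 (*Osam1*-labelled) and 101.05 FPKM (wild-type-labelled). A pair of loci in the window of LOC_Os04g07000 had nearly the same values, LOC_Os04g07830 with 120.05 FPKM in the *Osam1*-labelled library and 179.1 FPKM in the wild-type-labelled library and LOC_Os04g07890 with 112.1 (*Osam1*-labelled) and 167.9 FPKM (wild-type-labelled). Of the 10 loci with the highest means, 5 lay in the 2 distal windows, and 9 were within 2-fold.

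The exception was LOC_Os04g02910, with 36.0 FPKM in the *Osam1*-labelled library and 696.4 FPKM in the wild-type-labelled library, a log2 ratio of -4.24. Without the added 1 FPKM, it was 19.4-fold lower in the *Osam1*-labelled library, while the sum of the arm was nearly equal in the libraries. Its transcript model 1 was listed at 0 (*Osam1*-labelled) and had 187.5 FPKM (wild-type-labelled), its model 3 had 36.0 (*Osam1*-labelled) and 508.9 FPKM (wild-type-labelled), and its model 4 was listed at 0 in both libraries. Its lower level in the *Osam1*-labelled library thus came from both models with a value. Among the 15 short arm loci that averaged 100 FPKM or more it was the only one past 2-fold. Of all loci at this level, 8.55% were higher and 13.1% lower past 2-fold, and on the long arm 6.99% and 21.0% were.

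In the windows between the high loci, the leading locus was often modest. LOC_Os04g03050 led its window with 7.52 FPKM in the *Osam1*-labelled library and 29.45 FPKM in the wild-type-labelled library, the lowest leader of the 16 windows by its mean. LOC_Os04g09530 led with 36.2 (*Osam1*-labelled) and 30.5 FPKM (wild-type-labelled), and LOC_Os04g13470 with 33.45 (*Osam1*-labelled) and 37.6 FPKM (wild-type-labelled). LOC_Os04g12499 had 30.1 FPKM in the *Osam1*-labelled library and 55.6 FPKM in the wild-type-labelled library. These 4 leaders all lay below the 10 highest loci of the arm by mean level.

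The remaining leaders had intermediate values. LOC_Os04g05050 had 135.6 FPKM in the *Osam1*-labelled library and 93.1 FPKM in the wild-type-labelled library, LOC_Os04g08450 had 75.7 (*Osam1*-labelled) and 98.2 FPKM (wild-type-labelled), and LOC_Os04g15790 had 49.0 (*Osam1*-labelled) and 62.1 FPKM (wild-type-labelled). LOC_Os04g04254 had 47.8 (*Osam1*-labelled) and 38.1 FPKM (wild-type-labelled), and the *Osam1*-labelled value came from transcript model 1 alone and the wild-type-labelled value from model 2 alone. LOC_Os04g06790 had 70.8 FPKM in the *Osam1*-labelled library and 34.1 FPKM in the wild-type-labelled library, a log2 ratio of 1.03 that became 0.97 and 0.98 under the scalings tried. LOC_Os04g14680 had 27.3 (*Osam1*-labelled) and 115.8 FPKM (wild-type-labelled), a log2 ratio of -2.05. Of the leaders past 2-fold, LOC_Os04g06790 was higher in the *Osam1*-labelled library and just under 2-fold after scaling, and LOC_Os04g03050 and LOC_Os04g14680 were lower in the *Osam1*-labelled library.

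Levels of the same locus in both libraries were compared for the 394 short arm loci above 0 in at least 1 of them. By the 2-fold criterion, 85 loci (21.6%) were higher and 63 (16.0%) were lower in the *Osam1*-labelled library. Over all 27498 expressed loci of the table, 19.3% were higher and 22.6% lower, and on the long arm 16.1% were higher and 27.4% lower. With 1 FPKM added, the share of higher loci on the short arm was near that of the table. The share of lower loci was smaller. This comparison turned with the added value. With 0.1 FPKM added, 38.6% of the expressed short arm loci were higher and 31.98% lower, against 26.4% and 30.7% over all loci. The counts that follow are with 1 FPKM added. Of the 148 short arm loci past 2-fold, 108 (73.0%) were listed at 0 in 1 library, against 45.6% on the long arm and 50.8% over all loci past 2-fold. Only 26 of the higher and 14 of the lower loci had values above 0 in both libraries.

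Among the expressed loci of the arm, those found in 1 library alone were common. The *Osam1*-labelled library had 113 short arm loci that were listed at 0 in the wild-type-labelled library, and the wild-type-labelled library had 117 that were listed at 0 in the *Osam1*-labelled library. They made up 40.8% of the loci expressed in the *Osam1*-labelled library and 41.6% of those in the wild-type-labelled library, whereas the shares were 10.98% (*Osam1*-labelled) and 20.1% (wild-type-labelled) on the long arm, 16.9% (*Osam1*-labelled) and 22.8% (wild-type-labelled) over all loci, and 38.5% (*Osam1*-labelled) and 32.3% (wild-type-labelled) between the arms. Counted over all loci, expressed or not, they were 8.35% (*Osam1*-labelled) and 8.65% (wild-type-labelled) of the short arm. The same shares were 5.67% and 11.6% on the long arm and 6.76% and 9.78% over the whole table. Loci above 0 in both libraries were 12.1% of the short arm, 46.0% of the long arm and 33.2% of the table. Values of the short arm loci found in 1 library alone were low, with medians of 1.07 (*Osam1*-labelled) and 0.70 FPKM (wild-type-labelled). When the value had to be at least 1 FPKM, 59 (*Osam1*-labelled) and 49 loci (wild-type-labelled) were left. At matched levels the arms were closer: of loci averaging from 1 to below 3 FPKM, 63.8% on the short arm and 63.9% on the long arm were listed at 0 in 1 library, and of those averaging from 3 to below 10 FPKM 39.6% and 25.9% were.

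The 5 largest rises in the *Osam1*-labelled library included 1 locus with a value in both libraries. LOC_Os04g08330 had 90.3 FPKM in the *Osam1*-labelled library and 6.38 FPKM in the wild-type-labelled library, which was 14.1-fold higher without the added 1 FPKM. Its log2 ratio was 3.63. The others, LOC_Os04g09570 with 13.02 FPKM, LOC_Os04g01150 with 10.55 FPKM, LOC_Os04g09350 with 10.1 FPKM, all of it from the last of its 4 transcript models, and LOC_Os04g10250 with 9.13 FPKM in the *Osam1*-labelled library, were listed at 0 in the wild-type-labelled library. The largest falls were LOC_Os04g02910, given above, and 4 loci listed at 0 in the *Osam1*-labelled library. These were LOC_Os04g05080 with 35.2 FPKM, LOC_Os04g08749 with 22.4 FPKM, LOC_Os04g14390 with 18.3 FPKM and LOC_Os04g10214 with 15.95 FPKM in the wild-type-labelled library. LOC_Os04g10214, LOC_Os04g10240 and LOC_Os04g10250 are close to one another by number and were a fall, a high locus within 2-fold and a rise.

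**Figure D4:**
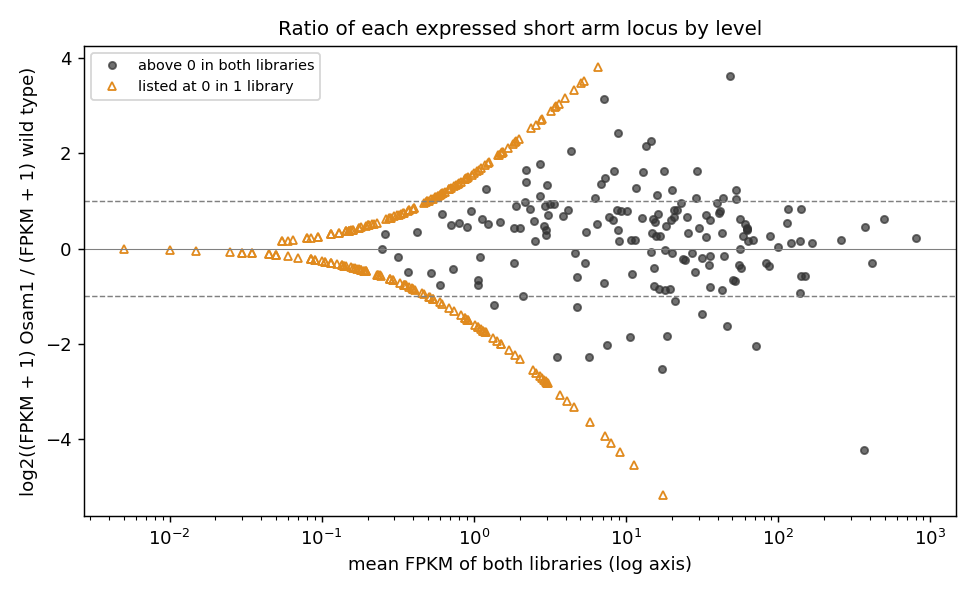
Log2 ratio of the *Osam1*-labelled library over the wild-type-labelled library, with 1 FPKM added to each value (y axis), against the mean FPKM of both libraries (x axis, log axis) for the 394 expressed short arm loci. Orange triangles are loci listed at 0 in 1 library and lie on 2 curves set by the added 1 FPKM, grey circles are the 164 loci above 0 in both, and the dashed lines mark 2-fold.

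The short arm loci leaned to the *Osam1*-labelled library, by a small amount. The median log2 ratio was 0.25 over the 394 expressed loci, against -0.19 on the long arm and -0.01 over all loci. Among the 139 short arm loci with at least 1 FPKM in both libraries it was 0.39, with 25th and 75th percentiles of -0.30 and 0.80, against -0.04 for the long arm and 0.06 for all loci. Of these 139 loci 92 (66.2%) were higher in the *Osam1*-labelled library, compared with 47.7% on the long arm and 53.1% over all loci. At 2-fold, 21 of them (15.1%) were higher and 12 (8.63%) lower, where 14.5% and 14.9% of all such loci were. The spread between loci was larger than the difference between the medians of the arms, and with 1 library per genotype the difference has no measured error.

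The lean was present in each class of level, and smallest for means under 1 FPKM, at 0.08 over 178 loci. For means from 1 to below 3 FPKM the median log2 ratio was 0.52 for 69 short arm loci and -0.91 for 216 long arm loci. For means from 3 to below 10 FPKM it was 0.67 for 48 loci and -0.36 for 336 loci, and for means from 10 to below 30 FPKM it was 0.29 for 46 loci and -0.09 for 420 loci. At 30 to below 100 FPKM it was 0.22 and -0.06, and at 100 FPKM or more 0.16 for 15 loci and -0.04 for 143 loci. In these classes the medians were 0.04 and 0.11 over all loci, and 0.09 and 0.40 for the loci between the arms. For means from 1 to below 3 FPKM they were -0.01 over all loci and 1.72 between the arms. The short arm was above the long arm in all 6 classes, and the gap was widest for means from 1 to below 3 FPKM, where values rest on few reads. Of 59 short arm loci with 1 transcript model, values in both libraries and a mean under 10 FPKM, 8 lay within 2% of the step of 2.37. Over the table, 198 of the 4204 low loci compared above did. The part of depth in the lean was not tested.

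**Figure D5:**
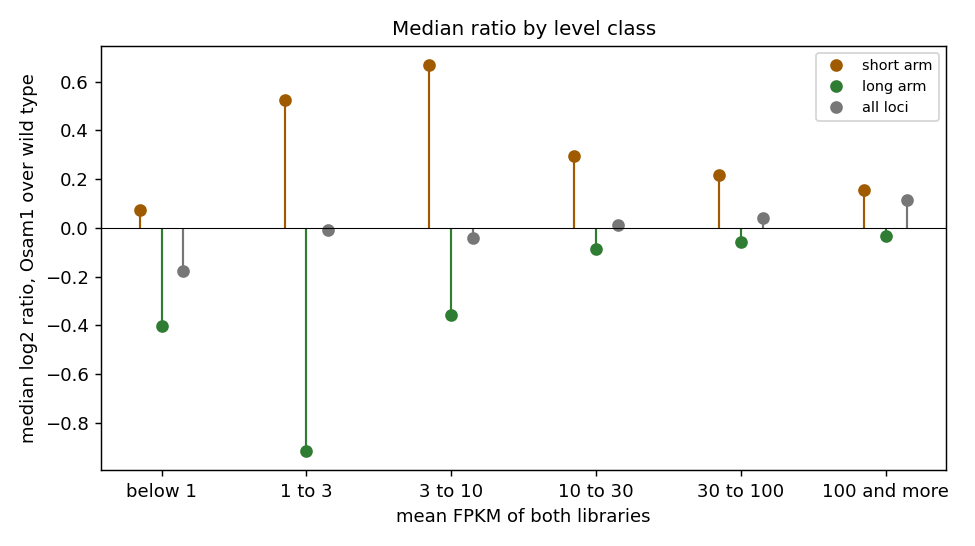
Median log2 ratio of the *Osam1*-labelled library over the wild-type-labelled library (y axis) by class of mean FPKM (x axis) for the short arm, the long arm and all loci. The short arm medians are above 0 in all 6 classes, from 0.08 to 0.67, and the long arm medians are below 0, from -0.91 to -0.04.

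The lean was spread along the arm. Of the 15 short arm windows in which 3 or more loci reached 1 FPKM in both libraries, 13 had a median above 0, against 13 of 30 on the long arm. The distal windows of LOC_Os04g01000 and LOC_Os04g02000 had medians of 0.59 over 27 loci and 0.43 over 21 loci, and the window of LOC_Os04g14000 had -0.02 over 13 loci. Of the 15 windows, those below 0 were this one and that of LOC_Os04g07000, at -0.53 over 4 loci. The window of LOC_Os04g09000 was left out because only 2 of its loci reached 1 FPKM in both libraries, and its median was -0.81. Across whole chromosomes the medians ranged from 0.00 on chromosome 3 to 0.23 on chromosome 12, and the windows of other chromosomes with a mean share of expressed loci under 25% had a median of 0.25 over 654 loci. A lean to the *Osam1*-labelled library was thus also measured in other places with few expressed loci.

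Exact copies of values were rare among well measured loci of the arm. Of the 164 short arm loci above 0 in both libraries, 2 shared both values with another locus of the table, and both were below 1 FPKM. With pairs that include a 0, 220 of the 394 expressed loci (55.8%) had a pair of values found elsewhere, against 22.9% on the long arm. The values have 2 decimals, and most such pairs were low values beside a 0.

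A list of 6 loci between LOC_Os04g09900 and LOC_Os04g10160 had hardly any signal. It was drawn up for functions that no table used here could check, so it is given by number alone. LOC_Os04g09900 had 0.75 FPKM in the *Osam1*-labelled library and stood at 0 in the wild-type-labelled library, and LOC_Os04g10160 was listed at 0 (*Osam1*-labelled) and had 0.91 FPKM (wild-type-labelled). LOC_Os04g09920, LOC_Os04g10000, LOC_Os04g10010 and LOC_Os04g10060 were listed at 0 in both libraries. In another such list, of 4 loci, LOC_Os04g01590 had 96.8 FPKM in the *Osam1*-labelled library and 80.2 FPKM in the wild-type-labelled library. LOC_Os04g01690 had 4.02 (*Osam1*-labelled) and 2.07 FPKM (wild-type-labelled), LOC_Os04g01740 had 3.54 (*Osam1*-labelled) and 2.44 FPKM (wild-type-labelled), and LOC_Os04g16680 was listed at 0 (*Osam1*-labelled) and had 3.02 FPKM (wild-type-labelled). Of these 10 loci, 1 was past 2-fold, and it was listed at 0 in 1 library. The loci listed at 0 in both libraries could not be past it. Over all expressed loci of the table, 19.3% were higher and 22.6% lower past 2-fold in the *Osam1*-labelled library.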

How the data were processed

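Spikelets of *Osam1* and wild-type rice were sequenced by the authors as 1 unstranded poly(A) library each, in pairs of 100 bp reads after 18 cycles of PCR. They filtered reads, aligned them to the genome of the Rice Genome Annotation Project with SOAPaligner/soap2, allowing up to 2 mismatches, and computed expression with ERANGE. The deposited values are FPKM per transcript model with 2 decimals, called RPKM in the methods of the study. The annotation release is not given in the sources used here.

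The table has 65535 rows and ends within chromosome 12, and later loci were not analysed here. Its rows were added per locus to 55337 values. Ratios were log2((FPKM + 1) labelled *Osam1* / (FPKM + 1) labelled wild type), and 2-fold was an absolute value of at least 1. Shares were counted over all loci of a range, in windows of 1000 locus numbers. No test was made, since each genotype has 1 library. Members, lists and alternatives were chosen with earlier results of these data known. Named loci were the 10 highest means, the 5 largest rises and falls, the highest of each window, the loci beside the longest run at 0, and 2 lists of 6 and 4 loci drawn up by presumed function. Those lists are given without names, because no table used here annotates the numbers, and for the same reason transposon loci were not counted apart. The 2-fold calls were checked only on simulated loci of high level with large changes. That check did not cover low loci or loci listed at 0 in 1 library. Alternatives were other cutoffs, added values, scalings, transcript models, ranges and windows. Python 3.11.15, numpy 2.4.6 and pandas 2.3.3 were used.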

Additional observations from a re-analysis of the deposited data

How the results depend on the processing

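The gap between the arms kept its direction under every cutoff, choice of transcript model and range that was run. At a cutoff of at least 1 FPKM, 15.4% (*Osam1*-labelled) and 14.3% (wild-type-labelled) of the short arm loci were expressed, and the medians of the expressed loci became 10.1 (*Osam1*-labelled) and 9.69 FPKM (wild-type-labelled). Without loci whose pair of values recurs elsewhere, the shares were 14.9% (*Osam1*-labelled) and 14.7% (wild-type-labelled) and the medians 14.1 (*Osam1*-labelled) and 13.7 FPKM (wild-type-labelled). On the long arm the shares were then 54.5% (*Osam1*-labelled) and 55.9% (wild-type-labelled). The long arm medians were 18.6 (*Osam1*-labelled) and 20.7 FPKM (wild-type-labelled), so the gap in level became much narrower. This setting removes mostly low loci listed at 0 in 1 library. Without the 2 distal windows, left out after the data had been seen, the share in the wild-type-labelled library was 17.7%. Loci in the *Osam1*-labelled library alone fell to 59 and in the wild-type-labelled library alone to 49 when at least 1 FPKM was required.

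The number of loci past 2-fold moved most. With 0.1 FPKM added, 152 short arm loci (38.6%) were higher and 126 (31.98%) lower in the *Osam1*-labelled library. The median log2 ratio was 0.40. Over all loci, 26.4% were higher and 30.7% lower at this setting. With 0.01 FPKM added the numbers were 153 (38.8%) and 137 (34.8%), and the median was again 0.40. Over all loci the shares were then 26.9% and 31.4%. With these added values, both short arm shares were above those of the table. With values above 0 in both libraries, 26 (15.9%) were higher and 14 (8.54%) lower, against 15.7% and 15.2% over all loci. Without recurring pairs of values, 33 (18.97%) were higher and 19 (10.9%) lower, with a median of 0.39. Over all loci, 17.02% were higher and 17.9% lower at this setting. With at least 1 FPKM in both libraries, chosen after seeing the data, 21 were higher and 12 lower, with a median of 0.39. Dividing by the median ratio gave a median of 0.20 and dividing by the 75th percentiles 0.21, so neither scaling turned the lean.

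Taking the first listed transcript model turned 2 of the named loci: LOC_Os04g09530 had a log2 ratio of -4.02 and LOC_Os04g15790 one of 0.058. It took LOC_Os04g09350, one of the 5 largest rises, to 0, with its first model listed at 0 in both libraries. It also put LOC_Os04g04254 at 5.61, LOC_Os04g01300 at 1.98, LOC_Os04g05050 at 1.44 and LOC_Os04g01690 at 1.23, all past 2-fold, and LOC_Os04g02910 at -7.56. The cause was not tested for results that moved, other than where a setting left fewer loci. No paired analysis was possible because each genotype has 1 library, and for the same reason no library could be left out. Low values rest on few reads, whose number is not in the table.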

Other observations

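The loci between the arms compared above, LOC_Os04g16700 to LOC_Os04g29999, resembled the short arm in their share of expressed loci. Of these 1247 loci, 22.7% were above 0 in the *Osam1*-labelled library and 20.6% in the wild-type-labelled library, with medians of 5.48 (*Osam1*-labelled) and 4.81 FPKM (wild-type-labelled). Their median log2 ratio was 0.30 over 366 expressed loci, and 0.25 over 140 loci with at least 1 FPKM in both libraries. Runs of at least 10 neighbours listed at 0 in both libraries held 264 of them (21.2%), the longest with 20 loci. Their sums were higher than those of the short arm, at 15969 FPKM in the *Osam1*-labelled library and 14359 FPKM in the wild-type-labelled library, and the 10 highest loci made up 61.3% (*Osam1*-labelled) and 59.5% (wild-type-labelled) of them. The 65 loci next to the short arm, numbered below LOC_Os04g17000, held 8841 (*Osam1*-labelled) and 7779 FPKM (wild-type-labelled) of these sums. Of the 65, 58.5% (*Osam1*-labelled) and 63.1% (wild-type-labelled) were expressed, the highest shares of the windows between the arms. The loci left out of the short arm were expressed in both libraries. LOC_Os04g06770 had 56.7 FPKM in the *Osam1*-labelled library and 34.6 FPKM in the wild-type-labelled library, and LOC_Os04g08034 had 38.0 (*Osam1*-labelled) and 37.3 FPKM (wild-type-labelled).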
